A study of Mus musculus with 5 samples.

Results

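The core cardiac transcription factors are the DNA-binding proteins and one cofactor-like homeodomain protein that establish and maintain the heart muscle program. They were chosen by name, as 10 genes (Gata4, Gata6, Nkx2-5, Mef2a, Mef2c, Mef2d, Tbx5, Tbx20, Hand2 and Hopx), and all 10 were found among the 12446 genes of the deposited table. The 10 genes were measured by bulk RNA sequencing of cardiomyocytes isolated from adult mouse hearts, in 3 libraries named OSKM-CMs (replicates 1, 2 and 3) and 2 libraries named Control-CMs (replicates 3 and 5). Mice of the OSKM-CMs group carried a mixture of 4 adeno-associated virus (AAV, serotype AAV9 in the design text) vectors: AAV-cTnT-Myc-V5, AAV-cTnT-Klf4-HA, AAV-cTnT-Sox2-Flag and AAV-cTnT-Oct4-His6, each a reprogramming factor with its own protein tag. Mice of the Control-CMs group carried AAV-cTnT-BFP, for blue fluorescent protein. In both groups the vectors used the cTnT (cardiac troponin T) promoter, which is active in cardiomyocytes, and were injected into the thoracic cavity of male C57BL/6 mice at 8 weeks of age. The age of all mice is given as 12 to 14 weeks. Whether the libraries stem from different mice is not in the labels, so the p-values reflect no more than library-to-library spread.

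GATA4, GATA6, NKX2-5, TBX5, TBX20, HAND2 and the MEF2 proteins bind each other and neighbouring DNA sites, and together activate contractile, calcium handling and natriuretic peptide genes. Many of them are first used in the embryonic heart and stay on in adult heart muscle. Some, among them Gata4, Gata6, Tbx20 and Hand2, are also expressed by other cells of the heart. In bulk RNA, fewer cells of a type and less RNA per cell cannot be told apart.

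Reads (or read pairs, which the files do not tell apart) over the listed genes totalled 2691796 to 2780752 in the OSKM-CMs libraries and 3519628 to 3861806 in the Control-CMs libraries. Where 0 reads were counted the limit is 3, which is 0.777 to 1.11 CPM depending on the library; such limits cover counting error only. Pou5f1 (Oct4) and Sox2 had no reads in the Control-CMs libraries and averaged 41.9 ± 6.80 and 39.8 ± 10.3 scaled RPKM in the OSKM-CMs libraries (SD, n = 3). Scaled RPKM are reads per kilobase of gene and per library size (RPKM), divided by a TMM (trimmed mean of M values) factor per library. Klf4 and Myc were 6.69-fold and 52.9-fold higher in OSKM-CMs. The fold of Myc is imprecise, because it rests on 4 and 5 reads in Control-CMs (replicates 3 and 5). Genes of mitochondrial DNA made up 9.76% to 11.1% of each OSKM-CMs library, against 21.2% and 24.7% of the Control-CMs libraries. With limma, 15.9% of all 10915 tested genes were called higher in OSKM-CMs and 14.3% lower, beside which the marker counts here stand. Of 11 tested cardiomyocyte markers, 9 were lower in OSKM-CMs and 2 did not pass. Their summed level was 21983 to 25654 scaled RPKM in OSKM-CMs and 40821 and 44629 in Control-CMs, the highest of any marker list in every library. Of 15 tested fibroblast markers, 6 were higher and 1 was lower, with summed levels of 185 to 361.5 scaled RPKM in OSKM-CMs and 101 and 198 in Control-CMs. Of 16 endothelial and endocardial markers, 1 was higher and 3 were lower, with sums of 133 to 279 in OSKM-CMs and 384 and 415 in Control-CMs. Atrial cardiomyocyte markers (2 of 6 tested higher, 1 lower) summed to 355 to 705 in OSKM-CMs and 176 and 211 in Control-CMs. Most of these sums was Clu, at 226 to 571 in OSKM-CMs and 141 and 173 in Control-CMs. Clu itself did not pass (limma adjusted p = 0.0611). Smooth muscle and pericyte markers (3 of 12 higher, 1 lower) summed to 756 to 840 in OSKM-CMs and 741 and 771 in Control-CMs. This list holds Des, which cardiomyocytes also express. Its 1 lower marker was Abcc9, at 14.2 ± 2.27 in OSKM-CMs and 80.8 ± 1.68 in Control-CMs. Which cells of these libraries held Abcc9 was not tested. With limma 0 of the 6 immune and 2 epicardial markers tested passed (0 and 1 at an unadjusted p under 0.05; 0 and 0 with limma voom), and their sums were 9.37 to 44.8 and 2.89 to 5.74 in OSKM-CMs and 14.7 to 57.3 and 4.84 to 12.3 in Control-CMs. With library totals alone the marker calls were 2 higher and 6 lower for cardiomyocytes, 6 higher and 0 lower for fibroblasts, 1 higher and 1 lower for endothelial cells, and 3 higher and 1 lower for atrial as for smooth muscle markers. With limma voom they were 9 lower and 0 higher for cardiomyocytes, 3 higher and 1 lower for fibroblasts, 1 higher and 6 lower for endothelial cells, and 2 higher and 1 lower for atrial as for smooth muscle markers. No marker in the table was at 0 in all 5 libraries. The part of these marker differences in the results below was not tested.

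**Figure D1:**
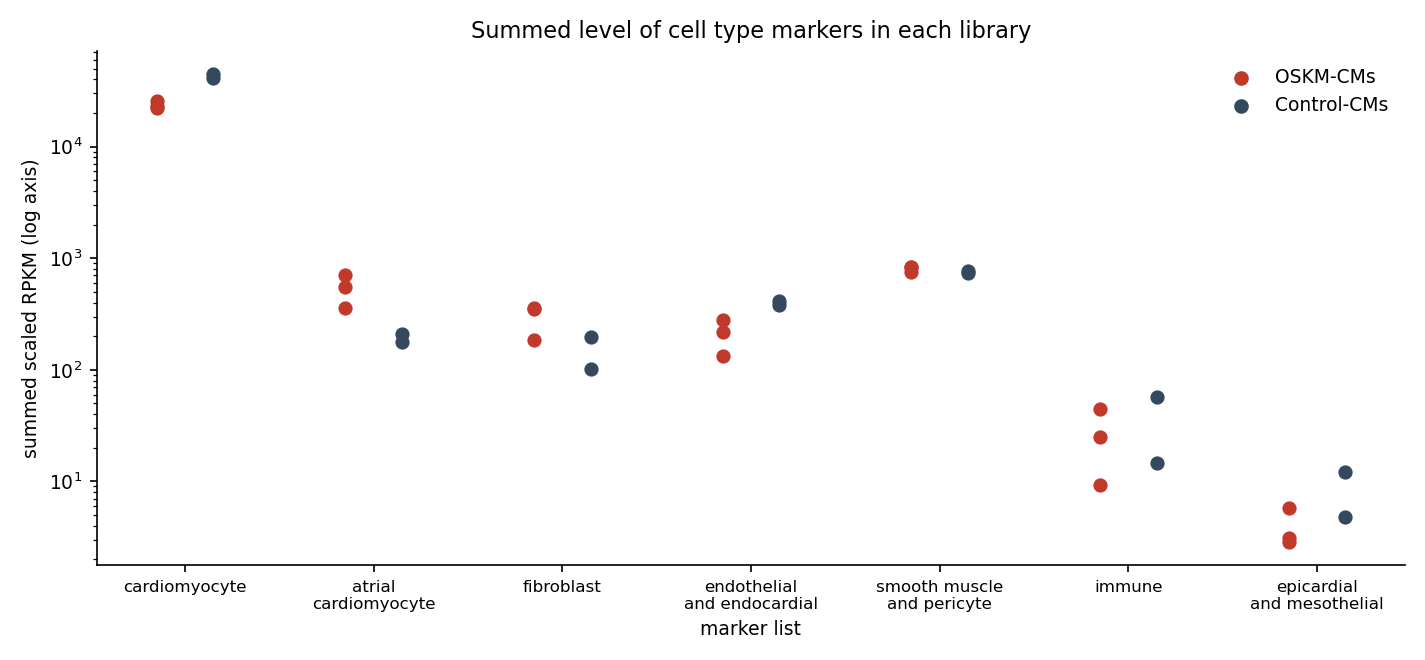
Summed scaled RPKM (log axis) of 7 lists of cell type markers, with 1 point per library, OSKM-CMs left of Control-CMs. Cardiomyocyte markers lie above all other lists in every library and are lower in OSKM-CMs (21983 to 25654) than in Control-CMs (40821 and 44629).

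The comparison asked whether the factors that hold the heart muscle program kept their transcript levels when the 4 reprogramming factors were expressed. The set did not move in 1 direction. With limma on log2 of scaled RPKM plus 1 and a Benjamini-Hochberg adjusted p below 0.05, Tbx20 and Mef2c rose, Hopx, Mef2a and Tbx5 fell, and Gata4, Gata6, Hand2, Nkx2-5 and Mef2d did not pass. All 10 had a mean of at least 1 RPKM and were tested. The 5 calls of 10 stand beside 30.2% called among all 10915 tested genes, 15.9% called higher and 14.3% called lower. The groups did not overlap for 7 of the 10, beside 57.9% of all tested genes. These shares were not matched for level. The median log2 change was -0.01 over the 10 factors and 0.02 over all tested genes. Summed over the 10 genes, the level was 226, 217 and 220 scaled RPKM in OSKM-CMs (replicates 1 to 3), and 237 and 251 in Control-CMs (3 and 5). The authors' deposited table also gives 5 of the 10 an FDR below 0.05, namely Tbx20 and Mef2c as higher and Hopx, Mef2a and Tbx5 as lower.

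**Figure D2:**
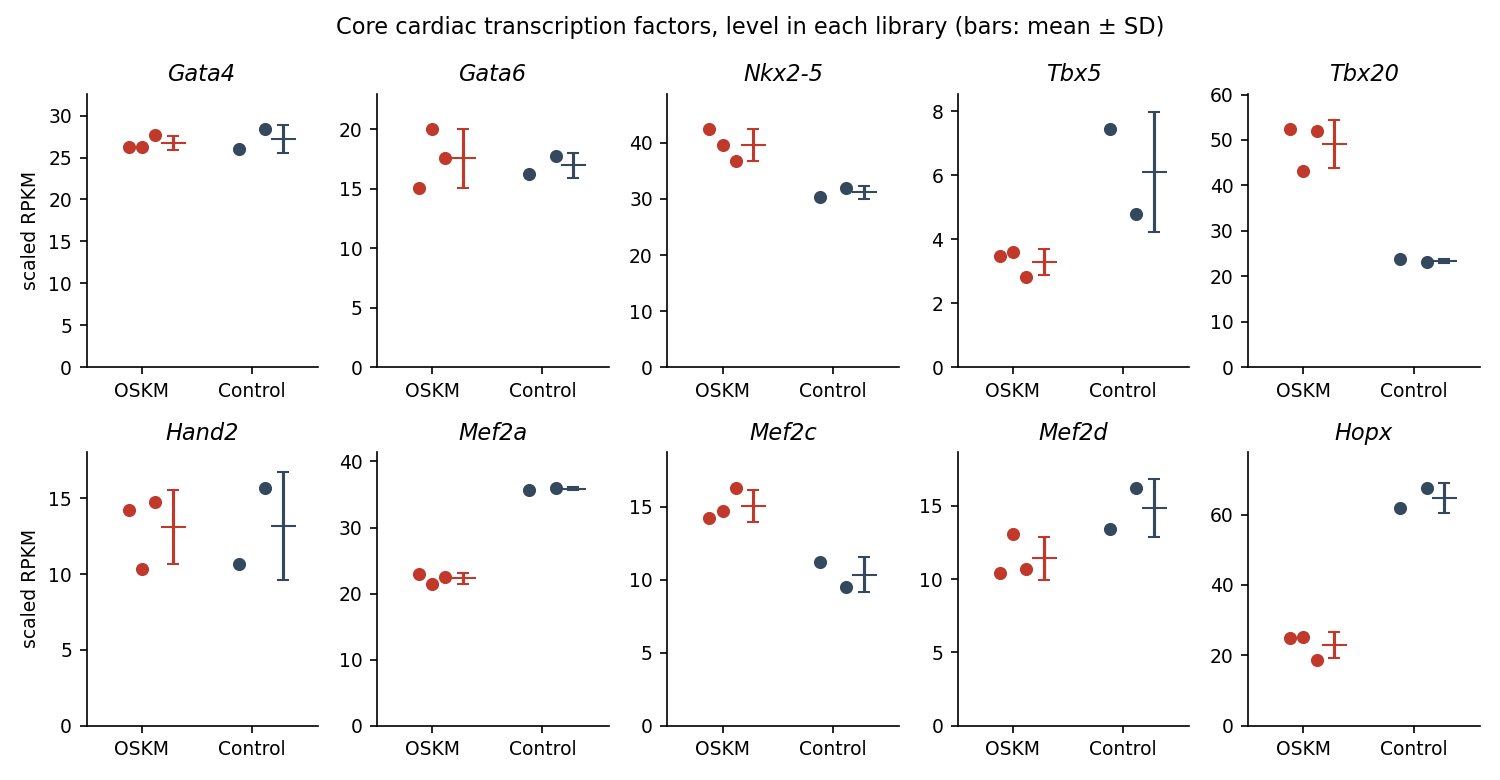
Scaled RPKM of the 10 factors in each library, OSKM-CMs left of Control-CMs, with 1 point per library and the mean ± SD beside the points (n = 3 and 2). Tbx20 was 43.1 to 52.4 in OSKM-CMs against 23.1 and 23.7 in Control-CMs, and Hopx was 18.7 to 25.2 against 61.8 and 67.7.

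Scaling set which of the smaller changes passed. When only library totals were divided out, the median tested gene lay at 0.36 on the log2 scale, with 36.5% of genes called higher and 5.96% lower. Under it 4 of the 10 factors were higher (Tbx20, Mef2c, Nkx2-5 and Gata4) and 1 was lower (Hopx). Measured from that median, Mef2a still lay at -0.62, Tbx5 at -0.73, Tbx20 at 1.081 and Hopx at -1.42, and Gata4 lay at 0.02. Hopx, Mef2a and Tbx20 passed without any 1 of the 5 libraries, whereas Mef2c and Tbx5 each lost the call in 4 of those 5 fits.

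**Figure D3:**
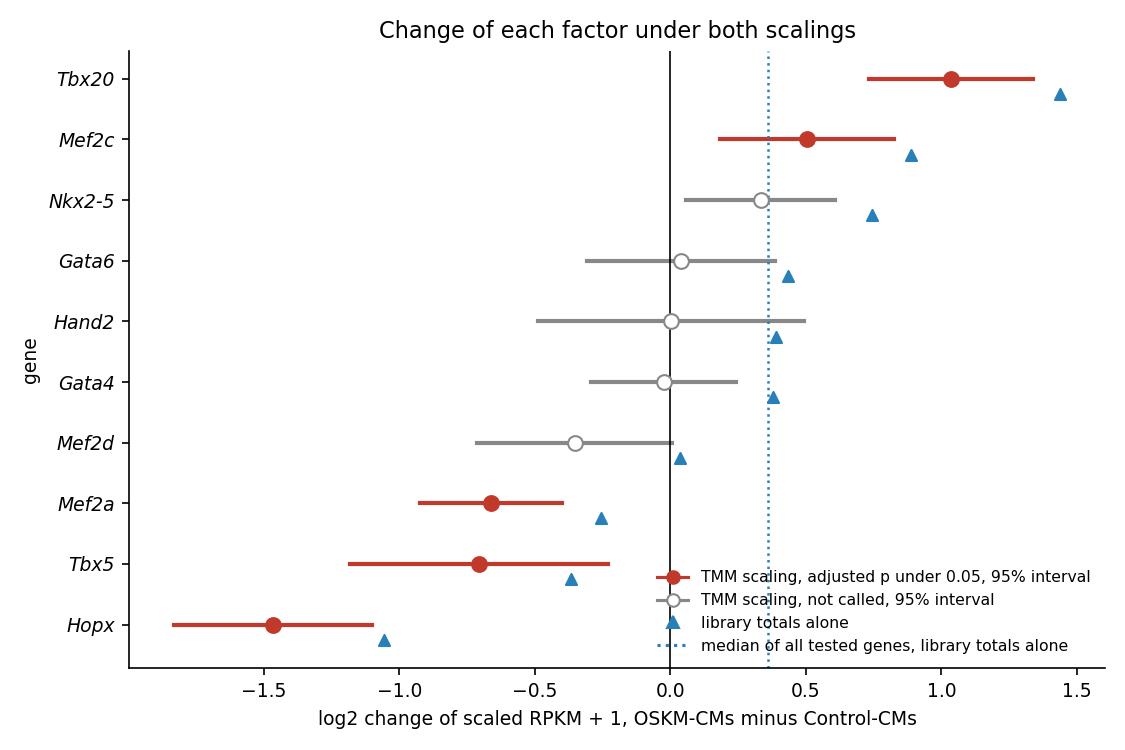
Log2 change of each factor, OSKM-CMs minus Control-CMs, on the scale of log2(scaled RPKM + 1), with TMM scaling (circles with 95% intervals; red where the adjusted p is below 0.05) and with library totals alone (triangles). Tbx20 lies highest at 1.03 and Hopx lowest at -1.47; the dotted line marks the median of all tested genes at 0.36 with library totals alone, beside which the triangles of Gata4, Gata6 and Hand2 lie.

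Tbx20 and Tbx5 are T-box factors of heart muscle. TBX20 is needed in the embryonic heart and for the function of adult cardiomyocytes, and TBX5 drives chamber and conduction system genes together with NKX2-5 and GATA4. Tbx20 (ENSMUSG00000031965.7) had 52.4, 43.1 and 52.0 scaled RPKM in OSKM-CMs (replicates 1 to 3), and 23.7 and 23.1 in Control-CMs (3 and 5). It rested on 723, 603 and 715 reads in OSKM-CMs and 331 and 319 in Control-CMs. All 3 OSKM-CMs libraries were above both controls, and the gap between the groups was wider than the range within either. The mean was 49.2 ± 5.25 in OSKM-CMs (SD, n = 3) and 23.4 ± 0.453 in Control-CMs (SD, n = 2), 2.10-fold higher, with a log2 change of 1.03 (SE 0.13, 95% interval 0.73 to 1.34, limma adjusted p = 0.00137). Among the 1740 genes called higher its log2 change ranked 688.

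Tbx5 (ENSMUSG00000018263.8) went the other way from a lower level. It had 3.47, 3.59 and 2.82 scaled RPKM in OSKM-CMs (replicates 1 to 3), and 7.44 and 4.79 in Control-CMs (3 and 5). The reads behind these were 42, 44 and 34 in OSKM-CMs and 91 and 58 in Control-CMs. Summed over each group, Tbx5 had the fewest reads of the 10 factors, 120 in OSKM-CMs and 149 in Control-CMs. The groups did not overlap, but the controls lay apart from each other by more than the lower of them lay from the OSKM-CMs libraries. The mean was 3.29 ± 0.413 in OSKM-CMs and 6.11 ± 1.88 in Control-CMs, 1.86-fold lower in OSKM-CMs, with a log2 change of -0.71 (SE 0.20, limma adjusted p = 0.0352). The call was lost without Control-CMs replicate 3 (-0.44, limma adjusted p = 0.187), without OSKM-CMs replicate 1, 2 or 3 (limma adjusted p from 0.0546 to 0.105) and with library totals alone (-0.37, limma adjusted p = 0.211).

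Within each library the ratio of Tbx20 to Tbx5, which no library scaling can move, was 15.1, 12.0 and 18.4 in OSKM-CMs (replicates 1 to 3) and 3.19 and 4.82 in Control-CMs (3 and 5). Every OSKM-CMs library was above both controls. The log2 ratio averaged 3.90 ± 0.309 in OSKM-CMs and 1.97 ± 0.422 in Control-CMs, a difference of 1.93 (exact permutation test over libraries, 2-sided p = 0.2, the smallest that this test gives for 3 libraries against 2).

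Hopx encodes a small homeodomain protein that lacks DNA-binding residues and restrains serum response factor, partly by recruiting histone deacetylase HDAC2. Hopx (ENSMUSG00000059325.7) was the most abundant of the 10 factors in Control-CMs, per kilobase, and had the largest change of the 10. It had 24.96, 25.2 and 18.7 scaled RPKM in OSKM-CMs (replicates 1 to 3), and 61.8 and 67.7 in Control-CMs (3 and 5). The reads were 161, 165 and 120 in OSKM-CMs and 403 and 437 in Control-CMs. Every OSKM-CMs library held less than either control, with a gap wider than the range within each group. The mean was 22.9 ± 3.71 in OSKM-CMs and 64.7 ± 4.14 in Control-CMs, 2.82-fold lower in OSKM-CMs, with a log2 change of -1.47 (SE 0.16, 95% interval -1.83 to -1.10, limma adjusted p = 0.000696). It ranked 173 in size among the 1558 genes called lower, and its level ranked 1832 in OSKM-CMs against 726 in Control-CMs among the 12446 genes.

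Promoter sequence is shown for Hopx and Tbx20 because they were the largest fall and the largest rise of the 10. RefSeq promoter windows (GRCm38.p6) were given for 7 of the 10 factors, 10 windows in all, with more than 1 for Hopx and Mef2c. The authors' reads were aligned to another build (mm9), so these coordinates serve the sequence alone. The 250 bases before each start were searched on both strands for 8 motifs: the MYC E-box CACGTG, the MEF2 site (CTA and TAG with 4 bases between), the octamer ATGCAAAT, the SOX site CATTGTT, the KLF site CCACNCCC, the T-box site AGGTGTGA, the GATA site AGATAA and the NKX2 site AAGTG. Sites of serum response factor and other spellings of these motifs were not searched. The window before the upstream start of Hopx (chr5:77115124-77115373, minus strand) and that of Tbx20 (chr9:24774304-24774553, minus strand) held none of the 8, and have 52.4% and 68.8% G and C. They overlap no exon in the GENCODE annotation of that build. Sequences run 5′ to 3′ on the gene's strand.
Hopx upstream promoter: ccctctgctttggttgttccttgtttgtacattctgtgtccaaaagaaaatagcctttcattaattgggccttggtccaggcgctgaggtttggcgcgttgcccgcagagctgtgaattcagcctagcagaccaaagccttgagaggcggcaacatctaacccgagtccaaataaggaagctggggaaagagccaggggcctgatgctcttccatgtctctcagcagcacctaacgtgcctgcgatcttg
Tbx20 promoter: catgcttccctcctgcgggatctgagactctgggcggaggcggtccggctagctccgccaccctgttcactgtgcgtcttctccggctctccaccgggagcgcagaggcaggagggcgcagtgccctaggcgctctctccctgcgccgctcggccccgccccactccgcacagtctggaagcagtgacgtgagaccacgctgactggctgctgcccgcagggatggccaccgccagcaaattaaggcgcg
The window before the downstream start of Hopx held 1 MYC E-box, beginning 86 bases before that start, and 2 NKX2 sites. This window overlaps an annotated exon. An E-box of these letters is in 6.02% of all 32851 promoter windows of that length, and an NKX2 site in 40.7%. The 30 bases around it (chr5:77095336-77095365, minus strand) are given with the E-box in capitals.
Hopx downstream E-box: tggcaaggccccCACGTGctagcccgcggc
These matches describe the sequence and are no evidence of binding in these cells. A KLF site, found in 15.9% of windows, was in the window of Nkx2-5, and that of Hand2 held a GATA site, found in 9.99%, and an NKX2 site. The windows of Mef2c held an NKX2 site each, and those of Mef2a and Mef2d held none of the 8.

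The MEF2 proteins are MADS-box factors that bind the same AT-rich sites in muscle genes, and heart muscle expresses Mef2a, Mef2c and Mef2d together. MEF2C is needed to build the embryonic heart, while MEF2A and MEF2D are prominent after birth. The start of the coding sequence encodes the shared MADS box and is given to show how alike the paralogues are where reads could be confused. The 180 bases from the start codon are from GENCODE M21 transcripts, with capitals for the 130 bases that are the same in all 3 paralogues.
Mef2a: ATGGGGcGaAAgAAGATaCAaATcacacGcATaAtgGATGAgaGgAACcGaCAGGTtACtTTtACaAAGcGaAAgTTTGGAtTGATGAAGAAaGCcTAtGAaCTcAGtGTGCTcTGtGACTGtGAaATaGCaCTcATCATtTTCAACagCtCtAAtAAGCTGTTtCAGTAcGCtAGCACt
Mef2c: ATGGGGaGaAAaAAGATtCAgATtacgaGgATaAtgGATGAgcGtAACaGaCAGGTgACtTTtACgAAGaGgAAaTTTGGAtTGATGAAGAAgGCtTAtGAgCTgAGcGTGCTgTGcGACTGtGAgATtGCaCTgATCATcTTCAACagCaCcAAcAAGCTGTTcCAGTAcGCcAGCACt
Mef2d: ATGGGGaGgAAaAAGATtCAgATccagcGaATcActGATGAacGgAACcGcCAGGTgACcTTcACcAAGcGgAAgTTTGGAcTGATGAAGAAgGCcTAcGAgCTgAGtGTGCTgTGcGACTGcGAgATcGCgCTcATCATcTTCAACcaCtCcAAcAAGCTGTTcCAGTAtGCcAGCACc
Over these bases Mef2a and Mef2c were 82.2% identical, Mef2a and Mef2d 77.8% and Mef2c and Mef2d 82.8%. Across their whole protein-coding transcripts the longest run of bases shared without a difference was 17 for Mef2a and Mef2c, 13 for Mef2a and Mef2d and 28 for Mef2c and Mef2d. The read length is not given in the sources used here.

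Mef2a (ENSMUSG00000030557.9) fell. It had 22.9, 21.4 and 22.6 scaled RPKM in OSKM-CMs (replicates 1 to 3), and 35.7 and 36.0 in Control-CMs (3 and 5), from 446, 422 and 437 reads in OSKM-CMs and 702 and 701 in Control-CMs. The libraries of each group lay close together and the groups far apart. The mean was 22.3 ± 0.795 in OSKM-CMs and 35.9 ± 0.206 in Control-CMs, 1.61-fold lower in OSKM-CMs, with a log2 change of -0.66 (SE 0.11, 95% interval -0.92 to -0.40, limma adjusted p = 0.00434). With library totals alone the change was -0.26 and did not pass (limma adjusted p = 0.131).

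Mef2c (ENSMUSG00000005583.8) rose. It had 14.2, 14.7 and 16.3 scaled RPKM in OSKM-CMs (replicates 1 to 3), and 11.2 and 9.496 in Control-CMs (3 and 5), from 323, 338 and 369 reads in OSKM-CMs and 257 and 216 in Control-CMs. Every OSKM-CMs library was above both controls. The mean was 15.1 ± 1.10 in OSKM-CMs and 10.3 ± 1.199 in Control-CMs, 1.46-fold higher, with a log2 change of 0.50 (SE 0.14, 95% interval 0.18 to 0.82, limma adjusted p = 0.0291). The change stayed positive, at 0.40 to 0.61, when any 1 library was left out, but passed only without Control-CMs replicate 3 (limma adjusted p = 0.0456), with the lowest value and an adjusted p of 0.146 without Control-CMs replicate 5.

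Mef2d (ENSMUSG00000001419.10) had 10.4, 13.1 and 10.7 scaled RPKM in OSKM-CMs (replicates 1 to 3), and 13.5 and 16.2 in Control-CMs (3 and 5). The highest OSKM-CMs library lay just under the lower control. The mean was 11.4 ± 1.46 in OSKM-CMs and 14.8 ± 1.97 in Control-CMs, with a log2 change of -0.35 that did not pass (95% interval -0.71 to 0.01, limma adjusted p = 0.125).

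Within each library Mef2c took 29.9%, 29.8% and 32.9% of the summed RPKM of the MEF2 genes in OSKM-CMs (replicates 1 to 3), and 18.5% and 15.4% in Control-CMs (3 and 5). The share of Mef2a was 48.2%, 43.5% and 45.5% in OSKM-CMs and 59.2% and 58.3% in Control-CMs. Neither share overlapped between the groups, and both, being taken within a library, do not depend on library scaling. The Mef2c share averaged 30.9% ± 1.75 in OSKM-CMs and 16.9% ± 2.24 in Control-CMs, and the Mef2a share 45.8% ± 2.34 in OSKM-CMs and 58.8% ± 0.607 in Control-CMs (exact permutation tests over libraries, 2-sided p = 0.2 for each, the smallest possible here). The Mef2d share, 23.4% ± 2.81 in OSKM-CMs and 24.3% ± 2.84 in Control-CMs, overlapped (exact permutation p = 0.6). The MEF2 genes summed to 47.6, 49.2 and 49.6 scaled RPKM in OSKM-CMs and 60.4 and 61.8 in Control-CMs.

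**Figure D4:**
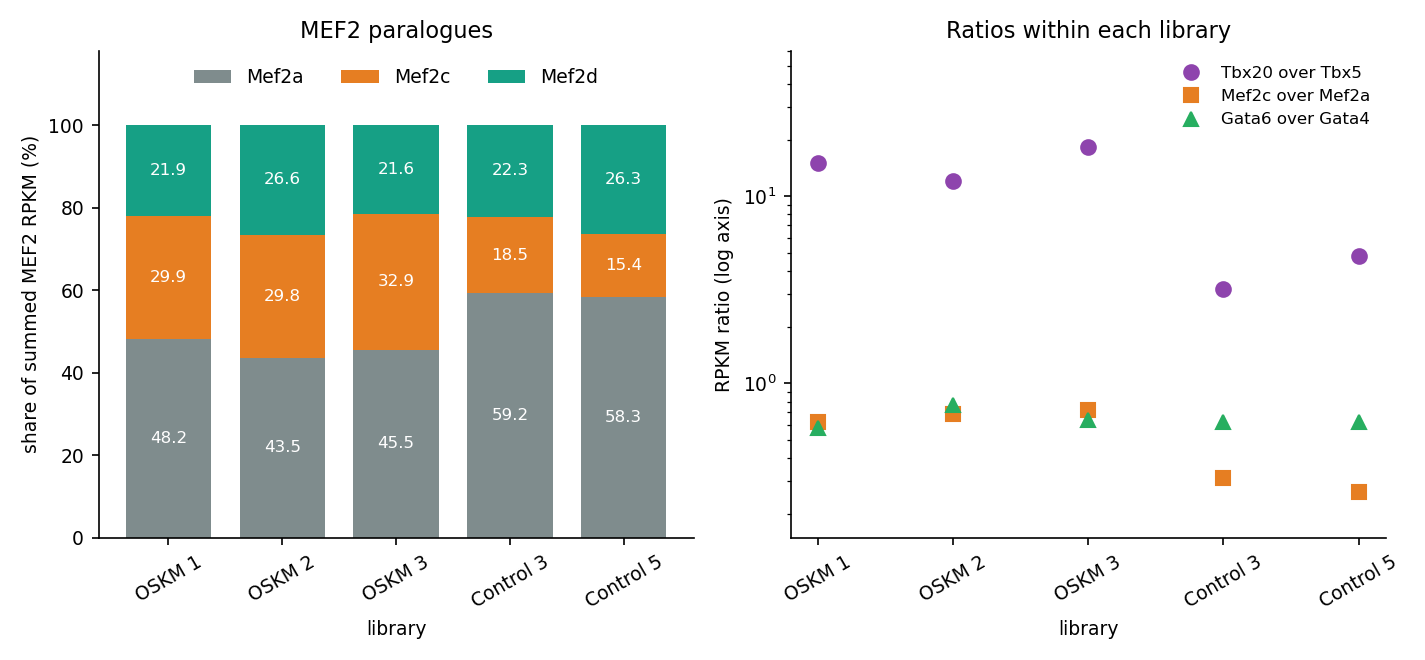
Left, share of the summed MEF2 RPKM (%) taken by Mef2a, Mef2c and Mef2d in each library, OSKM-CMs left of Control-CMs; Mef2c takes 29.8% to 32.9% in OSKM-CMs and 15.4% and 18.5% in Control-CMs. Right, RPKM ratios within each library on a log axis; Tbx20 over Tbx5 is 12.0 to 18.4 in OSKM-CMs and 3.19 and 4.82 in Control-CMs, while Gata6 over Gata4 overlaps between the groups.

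The zinc finger factors GATA4 and GATA6 activate many heart genes in common, and GATA4 takes part in the growth of adult heart muscle under load. Gata4 (ENSMUSG00000021944.8) had 26.2, 26.2 and 27.7 scaled RPKM in OSKM-CMs (replicates 1 to 3), and 26.1 and 28.4 in Control-CMs (3 and 5). The groups overlapped within a narrow range, and the mean was 26.7 ± 0.840 in OSKM-CMs and 27.2 ± 1.65 in Control-CMs. Its log2 change was -0.02 (95% interval -0.29 to 0.24, limma adjusted p = 0.890). With library totals alone, where the median gene moved by 0.36, Gata4 was called higher at 0.38 (limma adjusted p = 0.0370).

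Gata6 (ENSMUSG00000005836.8) had 15.1, 20.01 and 17.6 scaled RPKM in OSKM-CMs (replicates 1 to 3), and 16.2 and 17.7 in Control-CMs (3 and 5), with both controls inside the range of OSKM-CMs. Its log2 change was 0.04 (95% interval -0.31 to 0.39, limma adjusted p = 0.865). The ratio of Gata6 to Gata4 within a library was 0.575, 0.763 and 0.636 in OSKM-CMs and 0.623 and 0.624 in Control-CMs, and the groups overlapped (exact permutation p = 0.8).

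Hand2, a basic helix-loop-helix factor of the right ventricle and of neural crest derivatives, was likewise not called. Hand2 (ENSMUSG00000038193.3) had 14.3, 10.3 and 14.8 scaled RPKM in OSKM-CMs (replicates 1 to 3), and 10.7 and 15.7 in Control-CMs (3 and 5). It spread widely within both groups, from 72 to 101 reads in OSKM-CMs and from 74 and 108 in Control-CMs. The log2 change was 0.00 with a wide 95% interval of -0.49 to 0.49 (limma adjusted p = 0.996), so these libraries leave a change within those bounds possible.

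Nkx2-5 encodes the homeodomain factor that marks the heart lineage from its earliest stage. Nkx2-5 (ENSMUSG00000015579.4) had 42.5, 39.6 and 36.8 scaled RPKM in OSKM-CMs (replicates 1 to 3), and 30.4 and 32.0 in Control-CMs (3 and 5). Every OSKM-CMs library was above both controls. The mean was 39.6 ± 2.81 in OSKM-CMs and 31.2 ± 1.11 in Control-CMs, with a log2 change of 0.33 (95% interval 0.06 to 0.61). It had an unadjusted p of 0.0235 and did not pass the correction (limma adjusted p = 0.0684). It was called higher with library totals alone (0.74, limma adjusted p = 0.00223) and with totals that leave out genes of mitochondrial DNA (0.53, limma adjusted p = 0.0110).

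The order of the factors by level per kilobase differed between the groups. In OSKM-CMs the order by mean scaled RPKM was Tbx20 (49.2), Nkx2-5 (39.6), Gata4 (26.7), Hopx (22.9), Mef2a (22.3), Gata6 (17.6), Mef2c (15.1), Hand2 (13.1), Mef2d (11.4) and Tbx5 (3.29). In Control-CMs it was Hopx (64.7), Mef2a (35.9), Nkx2-5 (31.2), Gata4 (27.2), Tbx20 (23.4), Gata6 (17.0), Mef2d (14.8), Hand2 (13.2), Mef2c (10.3) and Tbx5 (6.11). Neighbours whose libraries overlapped in OSKM-CMs were Hopx with Mef2a, Gata6 with Mef2c, Mef2c with Hand2 and Hand2 with Mef2d, so their order is not resolved. In Control-CMs Gata6, Mef2d, Hand2 and Mef2c overlapped each with the next. Tbx20 stood at the head in OSKM-CMs and below Gata4 in Control-CMs, and Hopx at the head in Control-CMs and below Gata4 in OSKM-CMs.

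Some of the 10 genes share ground with other transcripts in the GENCODE annotation of GRCm38. Exons on the opposite strand overlap those of Mef2a over 302 bases (Lysmd4), Gata6 over 93 (1010001N08Rik), Hopx over 412 (Hopxos), Hand2 over 461 (Hand2os1) and Mef2d over 531 (1700113A16Rik). The strand setting of the counting is not given in the sources used here, so reads over the shared bases may stem from either gene. Hopxos, Hand2os1 and 1700113A16Rik were not found by these names among the listed genes. Lysmd4 had 30, 51 and 39 reads in OSKM-CMs (replicates 1 to 3) and 68 and 44 in Control-CMs (3 and 5), against 422 to 446 and 701 to 702 for Mef2a. The entry 1010001N08Rik had 11 to 16 reads in OSKM-CMs and 11 and 30 in Control-CMs. For Gata4 and Gata6 the longest shared run was 18 bases, and for Tbx5 and Tbx20 it was 14.

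Most other transcription factors of heart development that were tested did not pass. Of 45 listed, 31 were in the table and 26 were tested: 2 rose, 3 fell and 21 did not pass. So 19.2% were called beside 30.2% of all tested genes, with a median log2 change of -0.27 beside 0.02 for all tested genes. Several of the 26 lay near the minimum of 1 RPKM, where the added 1 understates changes, and these shares were not matched for level. Klf15, a Krüppel-like factor that restrains heart growth, averaged 7.52 ± 1.38 scaled RPKM in OSKM-CMs and 18.9 ± 1.94 in Control-CMs (limma adjusted p = 0.00214). Irx4, an Iroquois factor typical of the ventricle, averaged 5.40 ± 0.9999 in OSKM-CMs and 13.7 ± 2.81 in Control-CMs, 2.54-fold lower in OSKM-CMs (limma adjusted p = 0.00349). Sox4 fell by 0.88 on the log2 scale (limma adjusted p = 0.0354), a call that was lost without OSKM-CMs replicate 2 or 3, without Control-CMs replicate 3 or 5 and with library totals alone. Foxo3, a forkhead factor of growth and stress signalling, averaged 22.9 ± 1.44 in OSKM-CMs and 12.2 ± 1.26 in Control-CMs (limma adjusted p = 0.00272). Tead2, a partner of YAP, rose 3.55-fold to a low level, 1.5999 ± 0.0806 in OSKM-CMs against 0.450 ± 0.144 in Control-CMs. Its log2 change with the added 1 was 0.845 (limma adjusted p = 0.0141). Tead2 rested on 24, 22 and 23 reads in OSKM-CMs and 8 and 5 in Control-CMs. It lost its call without OSKM-CMs replicate 1 or Control-CMs replicate 5. Divided by totals only, this list had 4 higher, 2 lower and a median of 0.09, below the 0.36 of all genes. Serum response factor, Srf, with which HOPX interacts, averaged 21.2 ± 2.78 in OSKM-CMs and 26.3 ± 2.64 in Control-CMs and did not pass (log2 change -0.30, limma adjusted p = 0.161).

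Most of the cofactors of the core factors that were tested did not pass. Of 32 listed, 28 were in the table and 26 were tested: 3 rose, 3 fell and 20 did not pass (23.1% called, beside 30.2% of all tested genes), with a median log2 change of -0.04. Ankrd1, a muscle ankyrin repeat protein and target of the same factors, averaged 2003 ± 727 scaled RPKM in OSKM-CMs and 484 ± 95.1 in Control-CMs (limma adjusted p = 0.00436). Hdac2, the deacetylase recruited by HOPX, rose by 0.54 (limma adjusted p = 0.0246), and lost its call without OSKM-CMs replicate 3 or without either control. Fhl2, a LIM protein of the sarcomere that binds transcription factors, averaged 742 ± 31.4 in OSKM-CMs and 1423 ± 57.0 in Control-CMs (limma adjusted p = 0.000834). Camta2, which acts with NKX2-5, fell by 0.65 (limma adjusted p = 0.0407) and lost its call in 4 of the 5 fits without a library. Crebbp and Wwtr1 lay at the threshold (log2 changes -0.47 and 0.50, limma adjusted p = 0.0490 and 0.0484), and in the fits without 1 library Crebbp never passed and Wwtr1 passed only without OSKM-CMs replicate 2. The list had 1 member higher without OSKM-CMs replicate 3 or without either control, and 1 lower without OSKM-CMs replicate 1 or 3 or without either control. Under plain totals it had 9 higher and 1 lower and a median of 0.27. Myocardin, Myocd, which joins SRF to muscle genes, averaged 13.8 ± 1.46 in OSKM-CMs and 15.2 ± 3.45 in Control-CMs, and the groups overlapped.

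Genes of the class IIa histone deacetylases, which hold MEF2 proteins inactive, and of kinases and calcineurin that relieve that block were next. Of 25 listed genes 22 were in the table, Hdac4 under a pair of identifiers, and 21 entries were tested: 1 rose, 4 fell and 16 did not pass (23.8% called, beside 30.2% of all tested genes), with a median log2 change of -0.12. Hdac4 averaged 3.16 ± 0.469 scaled RPKM in OSKM-CMs and 7.28 ± 1.004 in Control-CMs for ENSMUSG00000026313.8 (limma adjusted p = 0.00473). For ENSMUSG00000073617.2 it averaged 1.22 ± 0.479 in OSKM-CMs and 3.11 ± 0.0209 in Control-CMs (limma adjusted p = 0.0214), a call lost without OSKM-CMs replicate 1 or without either control. Mapk14, the p38 kinase, fell by 0.78 and Ppp3cb, a catalytic subunit of calcineurin, by 0.54 (limma adjusted p = 0.0143 and 0.0225). Mapk14 lost its call without OSKM-CMs replicate 1 or 3 or Control-CMs replicate 5, and Ppp3cb without OSKM-CMs replicate 1 or without either control. Rcan1, a calcineurin inhibitor whose transcription calcineurin itself raises, averaged 99.6 ± 22.4 in OSKM-CMs and 42.5 ± 0.0789 in Control-CMs, 2.35-fold higher (limma adjusted p = 0.00277). With 1 library left out, the fewest members lower was 1, without OSKM-CMs replicate 1 or Control-CMs replicate 5. Under plain totals the list had 8 higher, 1 lower and a median of 0.24. With these totals Mapk14 and Ppp3cb did not pass (log2 changes -0.40 and -0.16, limma adjusted p = 0.0995 and 0.436). Nor did Hdac4 under ENSMUSG00000073617.2 (-0.64, limma adjusted p = 0.0603). Ppp3cb also did not pass with totals that leave out genes of mitochondrial DNA (-0.36, limma adjusted p = 0.0978).

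Textbook target genes of the core factors moved in both directions. Of 48 listed, 44 were in the table and tested: 11 rose, 18 fell and 15 did not pass, and 65.9% called stands beside 30.2% of all genes. Many of these targets lay far above the minimum level for testing, and the shares were not matched for level. Their median log2 change was -0.31. The 4 largest falls were Mb (myoglobin), Ryr2 (the calcium release channel), Pln (phospholamban) and Atp2a2 (the sarcoplasmic reticulum calcium pump), with log2 changes from -1.58 to -1.33. The 4 largest rises were Myh7 (beta myosin heavy chain) at 4.89, Myl7 (atrial myosin light chain) at 2.66, Acta1 (skeletal actin) at 1.81 and Nppa (atrial natriuretic peptide) at 1.74. All 9 cardiomyocyte markers called lower are also among these 18 falls. Under plain totals the targets had 15 higher and 13 lower and a median of 0.09.

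Of 8 tested genes linked to HOPX, 2 rose, 2 fell and 4 did not pass, beside 30.2% called among all tested genes, with a median log2 change of -0.29. Tagln was among those that did not pass (log2 change -0.28, limma adjusted p = 0.538), and its groups overlapped. Besides Hdac2, Acta2 (smooth muscle actin, an SRF target that mural cells and myofibroblasts also express) rose, with 142, 319 and 215 scaled RPKM in OSKM-CMs (replicates 1 to 3) and 45.9 and 69.4 in Control-CMs (3 and 5) (limma adjusted p = 0.0131). It did not pass without Control-CMs replicate 3 (limma adjusted p = 0.0612), where Hdac2 did not pass either, nor with limma voom (adjusted p = 0.0528). The immediate early genes Egr1 and Fos, which SRF also drives, fell by 1.55 and 1.22 (limma adjusted p = 0.00707 and 0.0113), and Fos did not pass without Control-CMs replicate 5 (limma adjusted p = 0.0647). Without OSKM-CMs replicate 3 or Control-CMs replicate 5 the list had 1 member higher, and without Control-CMs replicate 5 it had 1 lower.

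**Figure D5:**
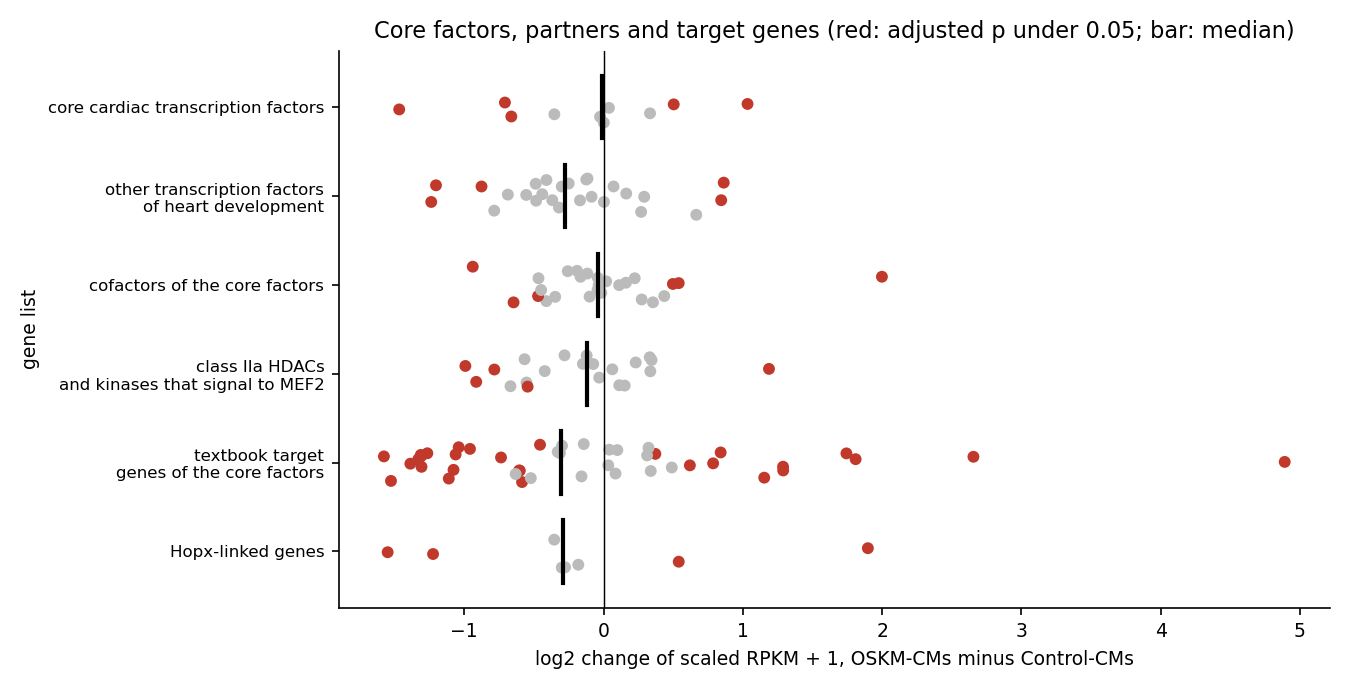
Log2 change, OSKM-CMs minus Control-CMs, of each tested gene of the 10 core factors and of 5 lists of partners and targets, with 1 point per gene (red where the limma adjusted p is below 0.05) and a bar at the median. The core factors spread from -1.47 to 1.03 around a median of -0.01, and the targets from -1.58 to 4.89 around -0.31.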

How the data were processed

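Total RNA of isolated cardiomyocytes was sequenced. The submitters' processing notes name STAR 2.5.3, HTSeq, Trimmomatic, FastQC, CASAVA 1.8.2 and the mouse build mm9; annotation and strand setting are not given in the sources used here. The authors' deposited library values are RPKM, a unit read from their steps because the header is silent; RPKM cannot be told apart from FPKM here, so what is called a read may be a read pair. Per gene, the deposited file adds the authors' log2 fold change and mean log2 abundance, a likelihood-ratio score, a p-value and an FDR; the FDR equalled the Benjamini-Hochberg adjustment for all 12446 genes, each of which reached 1 CPM in 2 or more libraries. Whole reads were recovered from the RPKM steps for 12446 genes (100%, within 0.0001 reads); for 440 genes a common factor was settled from the authors' abundance, and sums matched the library totals within 1 read.

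RPKM were divided by TMM factors (30% of log ratios and 5% of abundances trimmed). Genes with a mean of at least 1 RPKM, 10915 in all, were fitted as log2(scaled RPKM + 1) with limma 3.58.1 (R 4.3.3; abundance trend, robust, 2-sided, Benjamini-Hochberg at 0.05). The added 1 understates changes of low genes. Shares and ratios within libraries were compared by exact permutation (SciPy 1.17.1). The fit and the recovery were tested on simulated data. Replicate pairs differed by more than sampling noise (chi-square per degree of freedom 3.50 to 5.81). The members, gene lists and tests were chosen with earlier results of these data known. Named from each list were the 4 largest rises and 4 largest falls that passed, all called genes linked to HOPX, and all 10 factors. Srf, Myocd, Tagln, Clu and Abcc9 were named after their values were seen, and are not among the named entries counted below. Alternatives were other pseudocounts (0.1 and 5), filters (none and 3 RPKM), scalings, limma voom on the reads, a fit without robust and leaving out each library.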

Additional observations from a re-analysis of the deposited data

How the results depend on the processing

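With library totals alone the log2 change was 0.38 for Gata4, 0.74 for Nkx2-5, -0.26 for Mef2a and -0.37 for Tbx5, which turned the calls of these 4 factors; the calls then numbered 4 higher and 1 lower for the core factors, 4 higher for other heart factors, 9 higher and 1 lower for cofactors, 8 higher and 1 lower for MEF2 signalling genes, and 3985 higher and 650 lower for all genes. With totals that leave out mitochondrial DNA, where the median gene lay at 0.19, Nkx2-5 was 0.53 (called), Tbx5 -0.54 (not called), cofactors had 5 higher and 1 lower, MEF2 signalling genes 3 higher and all genes 1025 lower. A minimum of 3 RPKM left 1 other heart factor higher. With limma voom 5 other heart factors and 8 MEF2 signalling entries (6 of them among the 21 tested otherwise, since voom had no filter) were lower and 1 gene linked to HOPX was higher. Fits without 1 library gave Mef2c from 0.40 to 0.61 and Tbx5 from -0.99 to -0.44, with 1 to 2 core factors higher, 1 to 3 other heart factors higher, 1 to 3 cofactors higher and 1 to 2 lower, 1 to 5 MEF2 signalling genes lower, 0 to 2 genes linked to HOPX higher and 1 to 2 lower, 1158 to 1562 genes higher and 953 to 1504 lower. Of the 27 other named entries (Hdac4 counted under each of its identifiers, Srf and Myocd not counted), 16 passed in every such fit. Hopx and Tbx20 kept direction and call in all 14 alternatives, and Mef2a in all but library totals alone; the cause of these shifts was not tested. No paired analysis was possible because just 1 replicate number, 3, occurs in both groups. With 3 libraries against 2, the 2-sided permutation p used here, 2 times the smaller tail, cannot fall below 0.2. For Tbx5, 120 and 149 reads in OSKM-CMs and Control-CMs limit the precision.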

Other observations

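A few further T-box genes were read at levels under the minimum for testing, and are named here after their values were seen. Tbx2, a repressor of chamber genes, had 0.388 ± 0.139 scaled RPKM in OSKM-CMs (SD, n = 3) and 0.893 ± 0.132 in Control-CMs (SD, n = 2), and the groups did not overlap. Tbx3, a factor of the conduction system, had 0.626 ± 0.301 in OSKM-CMs and 0.332 ± 0.0404 in Control-CMs, again without overlap. Tbx18, a factor of the epicardium and sinus node, had 0.462 ± 0.174 in OSKM-CMs and 0.967 ± 0.483 in Control-CMs, with overlap. Few reads lay behind Tbx2 and Tbx3: 3 to 6 and 7 to 16 in OSKM-CMs. In Control-CMs they were 9 and 11 for Tbx2 and 6 and 5 for Tbx3. The groups did not overlap for 57.9% of all tested genes. Iroquois genes beside Irx4, likewise named after their values were seen, did not pass: Irx1 averaged 1.16 ± 0.781 in OSKM-CMs and 2.59 ± 0.537 in Control-CMs (limma adjusted p = 0.0840), and Irx3 4.85 ± 1.48 in OSKM-CMs and 8.50 ± 3.28 in Control-CMs (limma adjusted p = 0.108). Irx2 averaged 1.21 ± 0.293 in OSKM-CMs and 1.42 ± 0.891 in Control-CMs, with overlap (limma adjusted p = 0.838), and Irx5 1.98 ± 0.434 in OSKM-CMs and 2.83 ± 0.362 in Control-CMs (limma adjusted p = 0.2005).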
